A study of Mus musculus with 8 samples.

Results

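Killer lymphocytes, the natural killer (NK) cells and the cytotoxic T cells, kill target cells by releasing granules that hold granzymes and perforin, and they choose their targets through activating and inhibitory receptors. A list of 10 genes of this programme, of 53801 genes counted, was followed through the mRNA and ribosome footprints of resting lymphocytes. They were taken as a named list and comprise Gzma, Gzmb, Prf1, Nkg7, Ccl5, Klrd1, Klrc1, Klrk1, Klrb1c and Ncr1, all 10 of them counted in all 8 libraries. The cells were B cells and T cells of the spleens of B6 mice, isolated with a magnetic sorting kit and then cultured for 2 hours with no stimulus named. RNA-seq measured mRNA, and ribosome profiling sequenced the mRNA fragments that ribosomes protect from nuclease. Each cell type had 2 libraries per assay. Those of B cells carry the numbers 1 and 3, whichever the assay, while T cells had numbers 1 and 4 in RNA-seq and 1 and 2 in ribosome profiling. The footprint cells alone were labelled as treated with cycloheximide, an inhibitor of elongation, at 100 µg/ml for 15 minutes. No label states the mice's age or whether libraries came from separate animals, so p-values measure only the spread between these libraries.

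Perforin opens pores in the membrane of the target cell, and granzymes, which are serine proteases, enter through them and start its death. Most of the receptors are lectin-like proteins encoded together in the NK gene complex. In a resting spleen these genes are known from NK cells, from memory CD8 T cells and from innate-like T cells, and most conventional T cells and B cells are not known for them.

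Of the genes, 4 lie on chromosome 6 (GRCm38.p6), in the order Klrb1c (128778485 to 128788641), Klrd1 (129588092 to 129598775), Klrk1 (129610323 to 129623903) and Klrc1 (129666015 to 129682852). The gap from Klrd1 to Klrk1 is 11547 bases and that from Klrk1 to Klrc1 is 42111. Ncr1 (4337715 to 4345184) and Nkg7 (43437138 to 43438246) are both on chromosome 7 and far apart. Gzma is on chromosome 13 (113093824 to 113100981), Gzmb on chromosome 14 (56258836 to 56262334), Prf1 on chromosome 10 (61297751 to 61304684) and Ccl5 on chromosome 11 (83525778 to 83530518). Gzma lies within Cdc20b, which had 0 to 2 counts in each library, and Ccl5 lies within the long noncoding RNA gene Gm32650. Klrc1 has the relatives Klrc2 and Klrc3, Klrb1c the other Klrb1 genes and Gzmb related granzymes such as Gzmc, and how reads were divided between such relatives was not tested, so the counts of Klrc1, Klrb1c and Gzmb are uncertain to that extent.

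RefSeq promoter windows (GRCm38.p6) were listed for 8 of the 10 genes, not for Ccl5 and Klrd1. In the 250 bases before the start site all 8 held the letters TGTGGT or their complement ACCACA, the core bound by RUNX factors, against 14.0% of 32851 windows of the same length. AGGTGT or ACACCT, a T-box letter run, was in the windows of Gzma, Nkg7 and Prf1, against 11.8% of all windows. TGANTCA, an AP-1 run, was in that of Gzmb (6.75% of all), TTCNNNGAA, a STAT run, in that of Nkg7 (7.02%) and TGACGT, a CRE run, or its complement in that of Prf1 (6.47%). Both strands were searched, no matches overlapped each other in these windows, and a match of letters is a description, not a site in use. The windows shown end at the start of the annotated gene and belong to the granzymes, to Nkg7, which held 3 kinds of match, and to Ncr1, the gene whose mRNA overlapped between the cell types. Every match is in capitals.
Gzma (chr13:113100982-113101231, minus strand): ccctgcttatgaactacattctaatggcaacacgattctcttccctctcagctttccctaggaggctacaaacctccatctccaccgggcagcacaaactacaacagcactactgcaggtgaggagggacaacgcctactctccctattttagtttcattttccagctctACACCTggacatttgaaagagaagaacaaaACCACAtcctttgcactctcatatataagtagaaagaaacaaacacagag
Gzmb (chr14:56262335-56262584, minus strand): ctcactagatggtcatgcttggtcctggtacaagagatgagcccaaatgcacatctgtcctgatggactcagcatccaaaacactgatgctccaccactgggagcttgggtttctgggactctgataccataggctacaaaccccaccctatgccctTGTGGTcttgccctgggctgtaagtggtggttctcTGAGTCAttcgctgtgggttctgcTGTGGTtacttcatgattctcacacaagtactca
Nkg7 (chr7:43436888-43437137, plus strand): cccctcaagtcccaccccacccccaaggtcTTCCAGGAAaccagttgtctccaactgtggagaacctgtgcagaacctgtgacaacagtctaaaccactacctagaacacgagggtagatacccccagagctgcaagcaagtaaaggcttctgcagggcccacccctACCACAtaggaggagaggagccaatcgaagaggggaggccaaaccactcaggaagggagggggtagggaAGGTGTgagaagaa
Ncr1 (chr7:4337465-4337714, plus strand): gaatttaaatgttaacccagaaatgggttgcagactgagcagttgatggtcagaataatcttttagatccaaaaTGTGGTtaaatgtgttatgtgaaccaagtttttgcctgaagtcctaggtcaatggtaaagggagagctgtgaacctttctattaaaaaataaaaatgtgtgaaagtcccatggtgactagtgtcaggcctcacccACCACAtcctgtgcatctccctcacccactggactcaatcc
In Gzmb the RUNX core began at -93 and -34 from the start site, with the AP-1 run at -58 between them. It began at -50 in Gzma, at -83 in Nkg7 and at -176 and -41 in Ncr1.

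The libraries were very unequal in depth. RNA-seq libraries held 8945905 to 10050986 counts and footprint libraries 136433 to 627833, and T cell footprint library 1 was the deepest of the latter. Levels are given as counts per 1000000 of a library's total (CPM), so that 1 count was 0.0995 to 0.112 CPM in RNA-seq and 1.59 to 7.33 CPM in footprints. The mRNA of Ms4a1, the B cell surface protein CD20, stood at 1000 ± 87.8 CPM in B cells and at 14.0 ± 11.9 in T cells (mean and SD of 2 libraries). The CD3 epsilon gene Cd3e stood at 20.0 ± 23.2 CPM in B cells and at 412 ± 65.8 in T cells. The 2 RNA-seq libraries of a cell type differed from each other, in part alike in B and T cells. The macrophage gene C1qa had 3 counts in B cell library 1 and 257 in library 3, with 5 and 870 in T cell libraries 1 and 4, whereas Mpo, a myeloid granule enzyme, had 621 and 0 counts in the B cell libraries and 900 and 8 in those of T cells. Elane was lower in B cell library 3 like Mpo, but the neutrophil genes S100a8, S100a9, Csf3r and Cxcr2 were higher there than in library 1. Across 13227 genes, which are not independent, the deviations of the libraries numbered 1 from their group means had r = 0.56 between B and T cell RNA-seq and 0.06 between the footprints. With 2 libraries in a group the deviations are equal and opposite, so r cannot tell which library of a group is the unusual one. Levels are compared here mainly between libraries. Transcript lengths were not used, so where genes are ranked or summed, the order is one of counts only.

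Added over the 10 genes, the share of all counts was 0.00384% in B cell RNA-seq library 1 (95% Wilson interval 0.00346% to 0.00425%) and 0.0184% in library 3 (0.0175% to 0.0193%). It was 0.0930% in T cell RNA-seq library 1 (0.0911% to 0.0949%) and 0.128% in library 4 (0.126% to 0.130%). The footprint shares were 0.0110% in B cell library 1 (0.00749% to 0.0161%) and 0.0765% in library 3 (0.0661% to 0.0886%). In T cell footprints they were 0.168% in library 1 (0.159% to 0.179%) and 0.162% in library 2 (0.142% to 0.185%). These intervals cover counting error only, and each one lies apart from those of the other cell type in the same assay. In RNA-seq the libraries of each cell type stood apart from each other. In footprints the B cell libraries did so too, whereas the T cell libraries overlapped. In whole libraries of this kind, fewer cells that express a gene and less RNA per cell cannot be told apart.

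**Figure D1:**
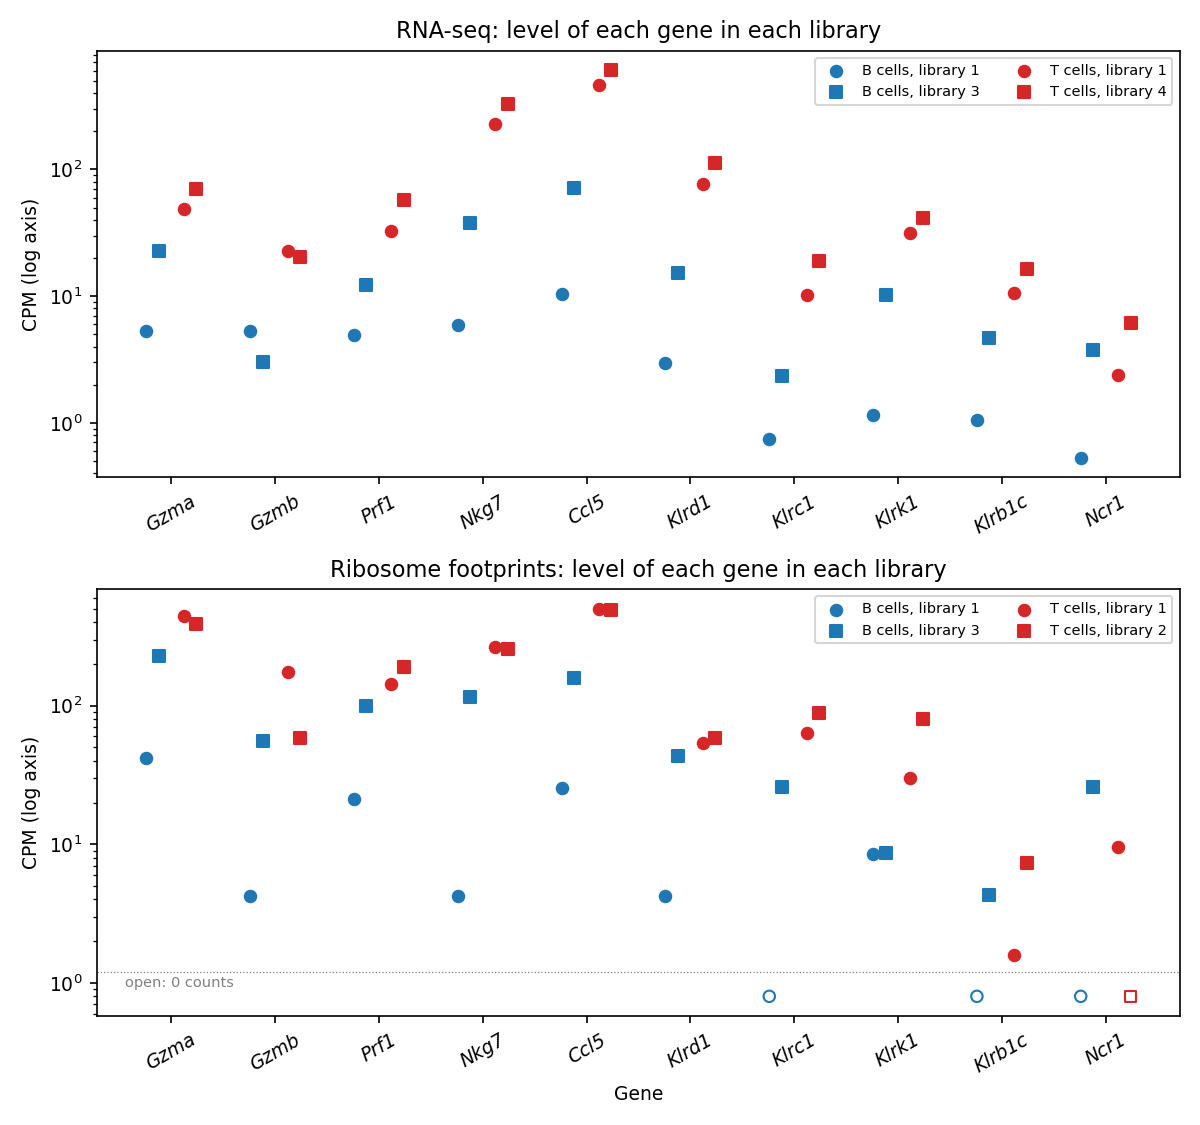
Level of each of the 10 genes in each library, in CPM on a log axis, for RNA-seq (top) and footprints (bottom); blue is B cells, red is T cells, and open symbols stand at 0 counts. B cell libraries lie under T cell libraries for 9 genes in RNA-seq, and B cell library 3 (blue squares) lies above library 1 for all but Gzmb.

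Among the granule genes, Gzma, which encodes the trypsin-like protease granzyme A, had 5.28 and 22.6 CPM in B cell RNA-seq libraries 1 and 3 and 48.5 and 70.4 CPM in T cell libraries 1 and 4. Both B cell libraries were under both T cell libraries. Its log2 difference of B minus T cells was -2.06 ± 0.65 (SE) and did not pass edgeR's quasi-likelihood test over 13929 genes (adjusted p = 0.101). Gzmb, granzyme B, which cleaves after aspartate and activates caspases, had 5.28 and 3.003 CPM in B cells against 22.9 and 20.5 in T cells. It was the exception to the order of the B cell libraries, being lower in library 3 than in library 1, and it was lower in B cells (-2.32 ± 0.37, edgeR adjusted p = 0.0206). Prf1, perforin, had 4.97 and 12.4 CPM in B cells against 32.7 and 57.9 in T cells, again without overlap (-2.34 ± 0.48, edgeR adjusted p = 0.0362). Nkg7 encodes a protein of the granule membrane that takes part in granule release. It had 5.92 and 37.8 CPM in B cells against 227 and 327 in T cells (-3.64 ± 0.86, edgeR adjusted p = 0.0494).

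Ccl5 encodes a chemokine that draws T cells and monocytes and that memory CD8 T cells and NK cells make. It was the gene of the list with the most counts in each of the T cell libraries of both assays. In RNA-seq it had 10.5 and 71.4 CPM in B cells against 468 and 608 in T cells, with the largest estimate of the list but a p just above the threshold (-3.70 ± 0.90, edgeR adjusted p = 0.0543). The B cell libraries differed 6.83-fold from each other.

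Of the receptors, Klrd1 encodes CD94, which pairs with NKG2 chains. It had 2.96 and 15.4 CPM in B cells against 76.2 and 112 in T cells (-3.33 ± 0.72, edgeR adjusted p = 0.0401). Klrc1, its inhibitory partner NKG2A, had 0.740 and 2.34 CPM in B cells against 10.2 and 18.9 in T cells (-3.18 ± 0.60, edgeR adjusted p = 0.0291). Klrd1 and Klrc1 form the receptor for the nonclassical MHC molecule Qa-1, and neither overlapped between the cell types. Klrk1, the activating receptor NKG2D, had 1.16 and 10.2 CPM in B cells against 31.5 and 41.0 in T cells, without overlap, and did not pass (-2.65 ± 0.87, edgeR adjusted p = 0.110).

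Klrb1c, whose product is the antigen of the usual NK cell antibody in B6 mice, had 1.06 and 4.67 CPM in B cells against 10.6 and 16.3 in T cells. Its libraries did not overlap either, and its difference did not pass (-2.19 ± 0.67, edgeR adjusted p = 0.0944). Ncr1 encodes NKp46, an activating receptor used to define NK cells, and it alone overlapped between the cell types in RNA-seq. Its 5 and 34 B cell counts were 0.528 and 3.78 CPM, and its 24 and 55 T cell counts were 2.39 and 6.15 CPM. B cell library 3 was above T cell library 1, and the estimate was the smallest of the list (-0.94 ± 0.93, edgeR adjusted p = 0.560).

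In RNA-seq, then, 5 of the 10 genes were lower in B cells and none was higher, where 9.06% of the 13929 genes tested were lower. The median log2 difference was -2.49, with -0.01 over all genes tested. For 9 of the genes the libraries did not overlap, that is, they had both B cell libraries under both T cell libraries, as did 33.6% of all genes tested. Leaving out B cell library 3 raised the count from 5 to 9 and leaving out library 1 raised it to 8. It fell to 3 when T cell library 4 was dropped, and with 1 library left in a group its spread is taken from the other group. It was 8 with DESeq2 and with limma voom. With a term that sets the libraries numbered 1 against the others it was 9, and the calls over all genes went from 2572 to 3755. The calls of Gzmb and Klrc1 held under each alternative run for them (13 of 13 and 12 of 12), and that of Nkg7 was lost without either T cell library.

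**Figure D2:**
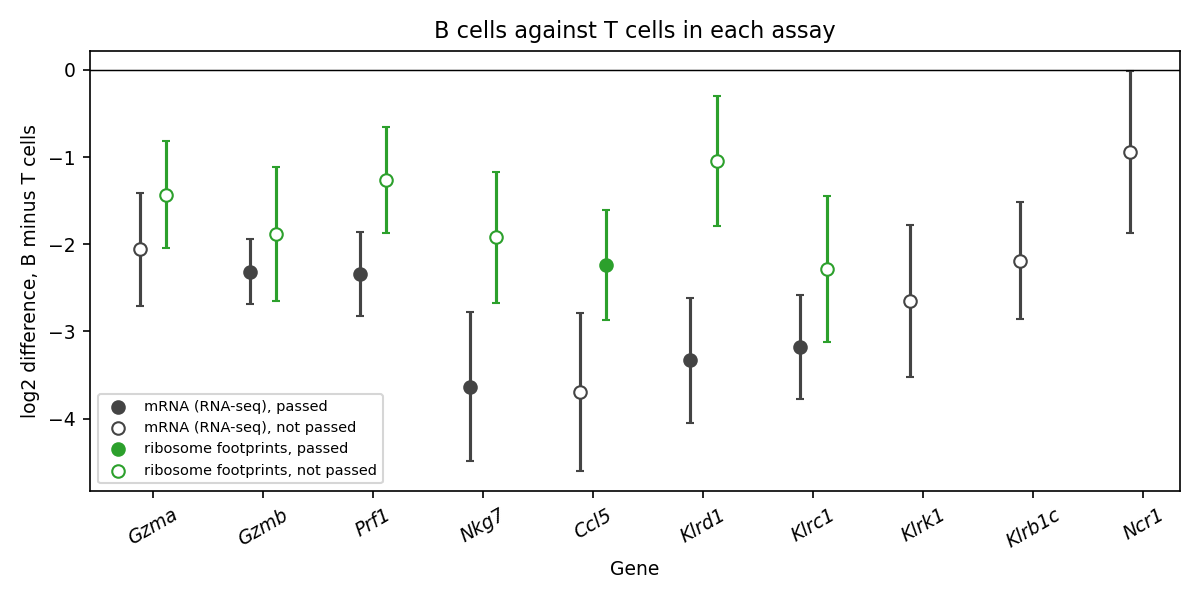
Log2 difference of B minus T cells for each gene with its standard error, in RNA-seq (grey) and footprints (green); filled symbols passed edgeR's test at an adjusted p of 0.05 and open ones did not. All 17 estimates are under 0, and the RNA-seq estimate of Ncr1 is the nearest to 0.

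Footprint libraries held fewer counts, and 7 of the 10 genes had enough to be tested. Gzma had 10 and 53 counts in B cell libraries 1 and 3 (42.2 and 228 CPM) and 277 and 53 in T cell libraries 1 and 2 (441 and 389 CPM). Its B cell libraries lay under its T cell libraries, with a difference of -1.43 ± 0.61 (edgeR adjusted p = 0.178). Gzmb gave 1 and 13 B cell counts and 109 and 8 T cell counts, which is 4.22 and 55.9 CPM against 174 and 58.6 CPM. B cell library 3 and T cell library 2 were thus nearly level for it (-1.88 ± 0.76, edgeR adjusted p = 0.154). Prf1 had 21.1 and 98.9 CPM in B cells against 143 and 191 in T cells (-1.26 ± 0.61, edgeR adjusted p = 0.240).

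Nkg7 gave 1 and 27 B cell counts and 166 and 35 T cell counts, or 4.22 and 116 CPM against 264 and 257. The T cell libraries were close to each other and the B cell libraries 27.5-fold apart (-1.92 ± 0.75, edgeR adjusted p = 0.135). Ccl5 was the single gene that passed, with 25.3 and 159 CPM in B cells against 502 and 491 in T cells (-2.24 ± 0.63, edgeR adjusted p = 0.0378). Its call was lost without B cell footprint library 1 and in a fit of all 8 libraries. Klrd1 had 4.22 and 43.0 CPM in B cells against 54.2 and 58.6 in T cells (-1.05 ± 0.75, edgeR adjusted p = 0.478).

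Klrc1 gave 0 and 6 B cell counts and 40 and 12 T cell counts (-2.29 ± 0.84, edgeR adjusted p = 0.111). Klrk1, not tested, had 2 and 2 counts in B cells against 19 and 11 in T cells, and its 8.45 and 8.60 CPM lay under 30.3 and 80.6. Klrb1c gave 0 and 1 B cell counts and 1 and 1 T cell counts, too few to compare at this depth. Ncr1 gave 0 and 6 B cell counts and 6 and 0 T cell counts, so that its groups overlapped, with 25.8 CPM in B cell library 3 and 9.56 CPM in T cell library 1. A count of 0 allows up to 3 counts, which is 12.7 CPM in B cell footprint library 1 and 21.99 CPM in T cell footprint library 2.

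Of the 7 genes tested 1 was therefore lower in B cell footprints and none was higher, where 4.8% of 4771 genes tested were lower and 8.38% higher. The B cell libraries lay under the T cell libraries for each of the 7 genes tested, as for 32.6% of all genes tested. Each of the 7 had enough counts to be tested through its 2 T cell libraries. Klrb1c and Ncr1, whose groups overlapped, were not tested. The filter thus favoured this order among the genes tested, and nothing is concluded from it. Over all 10 genes the B cell libraries lay under the T cell libraries for 8, Klrk1, not tested, included. Dropping B cell library 3 made the count of genes called lower 7, and dropping library 1 made it 0. It was 2 without T cell footprint library 1, 3 without library 2 and 4 with a term for the libraries numbered 1.

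The 2 B cell libraries differed from each other in these genes. Library 3 exceeded library 1 for 9 of the 10 genes in RNA-seq, by 2.49-fold (Prf1) to 8.81-fold (Klrk1), and for all 10 in footprints, where Klrk1 was nearly level (1.02-fold). In T cells RNA-seq library 4 was above library 1 for 9 of the 10, by 1.30-fold (Ccl5) to 2.58-fold (Ncr1), with Gzmb the exception.

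T cell markers also differed between the B cell libraries, with medians under those of the killer genes, although the RNA-seq ranges overlapped in both libraries. As a percent of the T cell mean, the median of 12 T cell markers was 0.687% in B cell RNA-seq library 1 and 10.3% in library 3, with ranges of 0.0815% to 5.03% and 7.18% to 15.9%. The median of the 10 killer genes was 6.48% in library 1 (1.94% for Ccl5 to 24.4% for Gzmb) and 21.8% in library 3 (13.3% for Ccl5 to 88.6% for Ncr1). In footprints the medians of the T cell markers were 0.953% and 4.73%, and those of the 8 killer genes with 10 or more T cell counts were 6.30% and 46.3%. Gzma, for example, had 10.2% and 54.9% of its T cell footprint level in B cell libraries 1 and 3, and Klrd1 7.49% and 76.2%. The CD8 T cell markers Cd8a and Cd8b1 had a median of 0.183% and 10.3% in RNA-seq and 3.15% and 3.69% in footprints. Their footprint values went opposite ways, from 4.67% to 2.38% for Cd8a and from 1.64% to 5.00% for Cd8b1. Those of Cd8a rest on 2 and 1 counts, so the footprint medians show no trend.

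**Figure D3:**
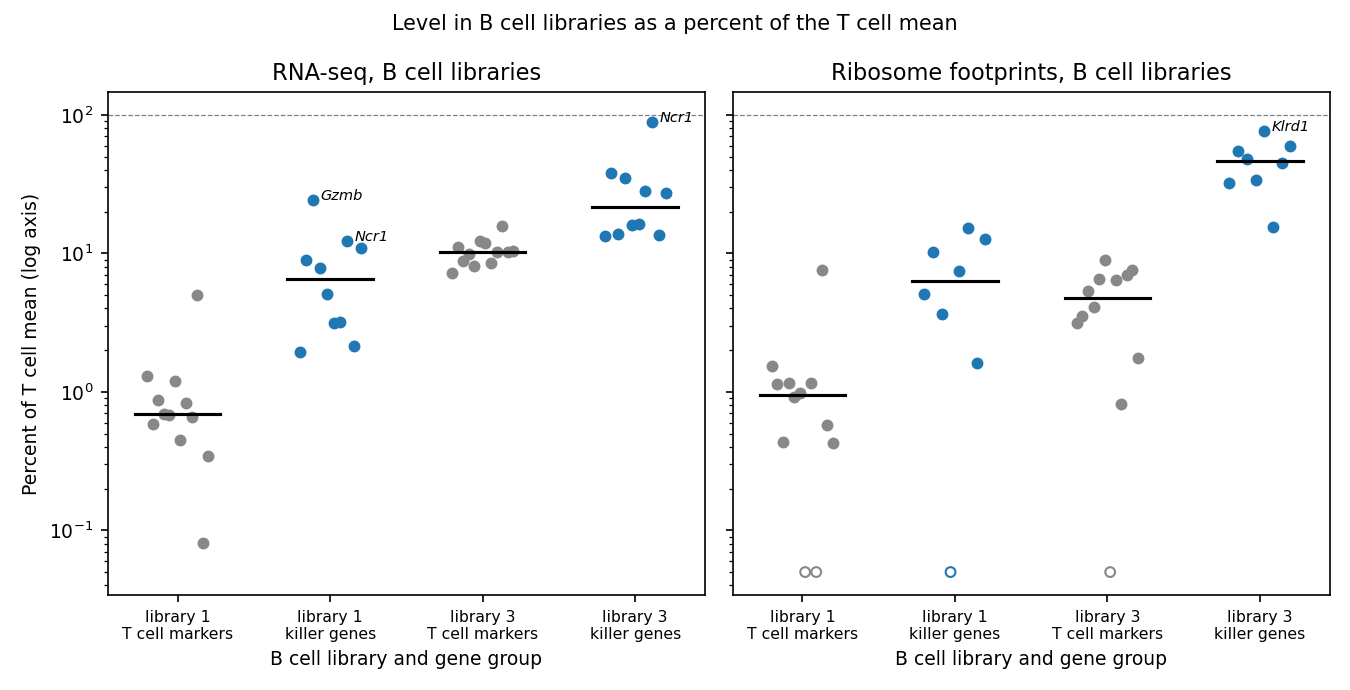
Level in each B cell library as a percent of the T cell mean of the same assay, on a log axis, for 12 T cell markers (grey) and the killer genes (blue, 10 in RNA-seq and 8 in footprints); bars are medians and open symbols are 0 counts. The medians of the killer genes are 6.48% and 21.8% in RNA-seq and 6.30% and 46.3% in footprints, above those of the T cell markers in each library.

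Of 12 NK cell markers, 3 (Gzma, Klrb1c and Ncr1) are also in the list of 10. None passed between B and T cell mRNA, where 18.5% of the 13929 genes tested passed in either direction. Their median log2 difference was -2.1. Of the 12 T cell markers only 2 passed, at a median of -4.2, so not passing does not show equal levels. As a percent of the T cell mean the median of the NK cell markers was 8.38% in B cell RNA-seq library 1 and 36.4% in library 3. Their ranges were 1.73% to 127% and 17.5% to 156%. The top of both ranges was Tyrobp, an adaptor that myeloid cells share. Summed, the 12 had 52.1 and 109 CPM in B cells, of which Tyrobp was 40.1 and 49.2, and 174 and 260 CPM in T cells, of which it was 18.3 and 44.8. Without Tyrobp and the 3 shared genes, the other 8 summed to 5.07 and 29.1 CPM in B cell libraries 1 and 3 against 94.4 and 122 in T cell libraries 1 and 4. None of the 12 was at 0 in RNA-seq. In footprints the 12 had 110 and 525 CPM in B cells against 575 and 623 in T cells, and Gzma made up most of the T cell sums (441 and 389). The other 8 had 25.3 and 112 CPM in B cell footprints against 98.8 and 191 in T cells, so that B cell library 3 lay above T cell library 1. At 0 counts were 8 and 2 of the 12 in B cell footprints and 2 and 4 in T cell footprints. Klra8, an activating receptor of NK cells in B6 mice, had 6 and 32 counts in B cell and 29 and 58 in T cell RNA-seq. Eomes, the transcription factor of NK and memory CD8 T cells, is one of the other 8 and gave 10 and 96 B cell counts and 532 and 621 T cell counts. At 61.2 ± 11.7 CPM in T cell RNA-seq and 110 ± 51.8 in T cell footprints, it made up most of the T cell sums of the 8. The T cell libraries thus held NK cell markers too, among them Eomes, which memory CD8 T cells share. Of the rest of the 8, Klre1 gave 137 and 162 T cell RNA-seq counts against 10 and 40 in B cells. Klra9 gave 60 and 57 against 2 and 13. How far any cell type carries the level of the killer genes in either sort was not tested. Macrophage and monocyte markers summed to 108 and 297 CPM in B cell RNA-seq and to 414 and 1068 in that of T cells, but to 329 and 254 in B cell and 781 and 454 in T cell footprints. Neutrophil markers summed to 90.3 and 19.8 CPM in the RNA of B cells and 117 and 14.2 in that of T cells, but to 12.7 and 619 in B cell and 38.2 and 242 in T cell footprints. These sums hide opposite changes. In B cell RNA-seq Mpo and Elane fell from 145% and 195% of the T cell mean in library 1 to 0% and 1.99% in library 3. S100a8 (47.55% to 231.6%), S100a9 (38.74% to 285.5%), Csf3r (25.55% to 230.6%) and Cxcr2 (22.98% to 72.59%) rose. In B cells neither sum kept the order of libraries 1 and 3 from RNA-seq to footprints, but S100a8 and S100a9 did. In footprints they rose from 8.39% to 307% and from 6.24% to 413% of the T cell mean. Lyz2, Cd68 and Ly6c2 of the macrophage and monocyte list were also higher in library 3 in both assays. Csf1r, Adgre1, C1qa, C1qb and C1qc were higher there in RNA-seq and lower in footprints. The part of such cells in these results was not tested either.

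Footprints were next set against mRNA, B and T cells apart, by 1 model over the 8 libraries with 13227 genes tested. The value is a log2 difference of footprints minus mRNA and carries the gene's translation together with the different making of the assays. Over all genes its median was -0.54 in T cells and -0.44 in B cells, and RLE scaling moved these to -0.42 and -0.34. Among the 4771 genes with enough footprints for the B and T comparison the medians were -0.041 and 0.014. In T cells the footprints of Gzma stood at 415 ± 37.3 CPM against 59.4 ± 15.5 CPM of mRNA (2.67 ± 0.74, edgeR adjusted p = 0.0293). Those of Gzmb stood at 116 ± 81.3 CPM against 21.7 ± 1.72 (2.43 ± 0.65, edgeR adjusted p = 0.0260), and those of Klrc1 at 75.8 ± 17.1 against 14.5 ± 6.18 (2.18 ± 0.67, edgeR adjusted p = 0.0413). Prf1 was just above the threshold, at 167 ± 33.4 against 45.3 ± 17.8 CPM (1.70 ± 0.57, edgeR adjusted p = 0.0554). For these 4 genes both T cell footprint libraries were above both RNA-seq libraries.

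None of the other genes passed in T cells. Nkg7 had 261 ± 5.56 CPM of footprints and 277 ± 70.4 of mRNA (-0.22 ± 0.88, edgeR adjusted p = 0.874), and Ccl5 496 ± 7.53 and 538 ± 99.1 (-0.26 ± 0.81, edgeR adjusted p = 0.839). Klrk1 had 55.4 ± 35.6 and 36.3 ± 6.71 CPM (0.20 ± 0.83, edgeR adjusted p = 0.881). Klrd1, whose protein pairs with that of Klrc1, had 56.4 ± 3.17 CPM of footprints under 94.2 ± 25.5 of mRNA (-0.90 ± 0.75, edgeR adjusted p = 0.398). Klrb1c had the lowest estimate, with 4.46 ± 4.06 under 13.4 ± 4.08 CPM (-2.41 ± 1.17, edgeR adjusted p = 0.152), from 2 footprint counts in all. The estimate for Ncr1 was 0.65 ± 1.38 (edgeR adjusted p = 0.754).

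Thus 3 of the 10 genes had more footprints than mRNA in T cells and none had fewer, where 8.91% of the genes tested had more. The footprints were above the mRNA in all libraries for 4 genes, as for 23.9% of all genes tested. The count of 3 became 4, with Prf1, under RLE, upper-quartile or per-assay scaling, DESeq2 or limma voom. It was 0 without T cell footprint library 1, 1 without T cell footprint library 2 and 1 without T cell RNA-seq library 1. It was also 1, that of Gzma, where only the genes with enough footprints for the B and T comparison were tested, a choice made after the data were seen.

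In B cells 2 of the 10 genes had more footprints than mRNA, where 6.51% of the genes tested had more. Gzma stood at 135 ± 131 CPM of footprints against 13.9 ± 12.2 of mRNA (3.30 ± 0.81, edgeR adjusted p = 0.0251). Prf1 had 21.1 and 98.9 CPM of footprints against 4.97 and 12.4 of mRNA (2.79 ± 0.70, edgeR adjusted p = 0.0276). Both had every B cell footprint library above every B cell RNA-seq library, as did 21.4% of all genes tested. Gzmb (2.81 ± 0.94, edgeR adjusted p = 0.0689) and Klrc1 (3.04 ± 1.21, edgeR adjusted p = 0.112) did not pass. The count was 0 without B cell footprint library 3, which held 178 of the 204 B cell footprint counts of the list, and 4 without B cell footprint library 1. It was 1 without B cell RNA-seq library 1, and 0 without either T cell footprint library, which enter through the shared estimate of spread.

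**Figure D4:**
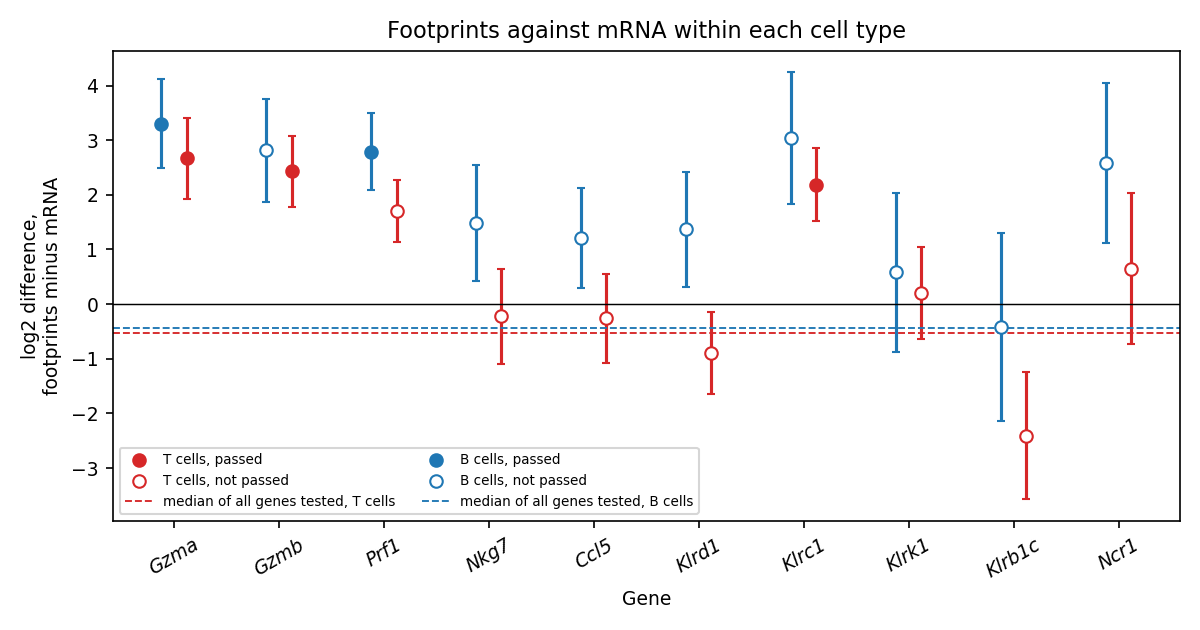
Log2 difference of footprints minus mRNA for each gene in B cells (blue) and T cells (red), with standard errors; filled symbols passed edgeR's test, and dashed lines mark the medians of all 13227 genes tested (-0.44 in B cells and -0.54 in T cells). Gzma, Gzmb, Prf1 and Klrc1 lie between 1.70 and 3.30 in both cell types, and Nkg7, Ccl5 and Klrd1 lie under 0 in T cells.

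Whether this ratio differed between the cell types was tested as the interaction of assay and cell type. None of the 10 genes passed, and 0 of the 13227 genes did with edgeR (0% called), although 748 genes and 0 of the 10 had an unadjusted p under 0.05. DESeq2 called 10 genes and limma voom 0, and neither called any of the 10. The estimates ran from 0.38 ± 1.65 for Klrk1 to 2.27 ± 1.30 for Klrd1, all towards B cells, and 9 of the 10 turned negative without B cell footprint library 3. Their standard errors were 0.87 to 2.43 on the log2 scale, from 1482 footprint counts of all 10 genes in the 4 libraries.

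Related genes were read from 8 further lists, whose counts stand beside 9.06% of all genes lower and 9.4% higher in B cell mRNA, and 4.8% lower and 8.38% higher in B cell footprints. Of 10 measured granzymes and granule proteins, 5 were lower and 1 higher in B cell RNA-seq. Gzmm, another granzyme, stood at -3.45 ± 0.36 (edgeR adjusted p = 0.00821) and Serpinb6b, a protease inhibitor, at -1.53 ± 0.30 (edgeR adjusted p = 0.0320). Gzmc had no count in B cells against 12 and 10 in T cells, so that it was at least 7.13-fold lower against 3 counts over the group. Ctsc, the peptidase that activates granzymes, was higher in B cells (1.37 ± 0.32, edgeR adjusted p = 0.0476). In footprints 2 of 7 were lower and 1 was higher. In T cells 3 of the 9 measured had more footprints than mRNA (8.91% of all genes), namely Srgn, the granule proteoglycan serglycin (2.86 ± 0.38), Serpinb9, an inhibitor of granzyme B (3.32 ± 0.38), and Calr (1.37 ± 0.28). The same 3 passed in B cells, of 9 measured and beside 6.51% of all genes, at 1.70 ± 0.36, 2.76 ± 0.51 and 1.39 ± 0.28. These 3 were named after their values were seen.

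Of 12 genes for granule transport and release 5 were lower in B cell mRNA and 1 was higher. Rab27a, a small GTPase for granule docking, stood at -1.95 ± 0.22, and the synaptotagmin-like genes Sytl1 and Sytl2 at -2.72 ± 0.45 and -4.09 ± 0.79. Lamp2, a lysosomal membrane protein, was higher (0.92 ± 0.17, edgeR adjusted p = 0.0277). The median over the list was -0.16 in mRNA. In footprints none of 9 passed in either direction, with a median of 0.37.

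Among 23 measured further NK receptors, 7 were lower in B cell mRNA and none was higher (median -2.49). Tigit, an inhibitory receptor of T and NK cells, stood at -3.10 ± 0.35, the Ly49 gene Klra6 at -3.49 ± 0.46 and Cd160 at -2.97 ± 0.52. Slamf7, a receptor that NK cells and B cells share, had an estimate of 0.86 ± 0.21 in mRNA (edgeR adjusted p = 0.0523) and was higher in B cell footprints (1.92 ± 0.45, edgeR adjusted p = 0.0130). Of the 3 receptors tested in footprints it was the 1 higher, and Tigit (-4.72 ± 0.60) and Cd96 (-4.00 ± 0.71), the latter named after its value was seen, were lower. Of 10 receptor adaptors 2 were lower and 2 higher in B cell mRNA, and of 8 in footprints 4 were lower and 2 higher. Hcst, which encodes DAP10, the adaptor of NKG2D, was lower (-2.30 ± 0.26, edgeR adjusted p = 0.00994), as was Cd247 (-3.59 ± 0.77), whereas Zap70 did not pass in mRNA (-3.76 ± 0.92, edgeR adjusted p = 0.0541) and was lower in footprints (-2.87 ± 0.48, edgeR adjusted p = 0.00188). Syk, the kinase that B cells use in place of Zap70, was higher (5.47 ± 0.36).

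Of 7 measured ligands of the receptors 1 was lower in B cell mRNA, 1 was higher and 5 did not pass, and in footprints 1 of 5 was lower and none higher. Pvr, the ligand of Tigit, was lower (-1.44 ± 0.17, edgeR adjusted p = 0.00995) and Clec2i was higher (1.11 ± 0.25, edgeR adjusted p = 0.0453). Cd48 (-0.31 ± 0.19, edgeR adjusted p = 0.338) and Clec2d (-0.67 ± 0.43, edgeR adjusted p = 0.367) did not pass.

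Among 11 transcription factors listed for the cytotoxic lineages 6 were lower and 1 was higher in B cell mRNA. In footprints 4 of 7 were lower and none higher. The 4, named after their values were seen, were Id2, Gata3, Tox and Ikzf2. Eomes did not pass there (-1.57 ± 0.88, edgeR adjusted p = 0.327) and Tbx21 was not tested. In mRNA Ikzf2 stood at -4.61 ± 0.39 and Id2, an inhibitor of E proteins, at -2.93 ± 0.28. Tbx21, which encodes T-bet, stood at -2.54 ± 0.33, while Zeb2 was higher (2.07 ± 0.22). Of 8 measured cytokine, chemokine and death ligand genes 3 were lower, Fasl (-3.63 ± 0.55), Tnf (-2.45 ± 0.42) and Ifng (-3.51 ± 0.76), and none was higher, with 1 of 5 lower and none higher in footprints. Ltb, a lymphotoxin chain, had an estimate of 0.07 ± 0.29, or -0.019 with upper-quartile scaling. Of 12 cytokine and homing receptors 8 were lower and none higher in mRNA, and 3 of 5 were lower and none higher in footprints. Among the 8 were Il12rb1 (-2.00 ± 0.20), the integrin gene Itgal (-1.19 ± 0.16) and Cxcr3 (-3.31 ± 0.58). Itgam had 0.05 ± 0.50 (edgeR adjusted p = 0.961), or -0.038 with upper-quartile scaling.

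By the distance of their centred log2 levels over the 4 RNA-seq libraries from the mean of the 10 genes, the nearest of 11301 other genes was Pdgfb, a growth factor chain, at 0.157. Next came Paqr7 (0.170), the sodium and proton exchanger gene Slc9a9 (0.203), Kctd17 (0.259) and Ptgfrn (0.272). Pdgfb gave 3 and 17 B cell counts and 76 and 105 T cell counts. Of the 10 genes themselves Klrc1 was nearest to their mean (0.466) and Gzmb farthest (1.91). The likeness is a description over 4 libraries and shares their depth and sorting.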

How the data were processed

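The deposited files held whole-number read counts per Ensembl gene, 1 file per library, made by the authors with FastQC, Bowtie2, TopHat and HTSeq on mm10, per the submitters' processing notes. Versions, annotation, counted feature and strand setting were not given in the sources used here, so reads of overlapping genes cannot be told apart. Footprint libraries were single-end and RNA-seq libraries paired-end, per the labels. Of 53801 gene IDs 53620 matched a symbol.

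Groups followed the labels, with 2 libraries each. B and T cells were compared within each assay (2 residual degrees of freedom), and footprints with mRNA in a fit of all 8 libraries (4), by edgeR 4.0.16 (TMM scaling, quasi-likelihood test, genes with 10 counts in enough libraries and 15 in all). P-values were adjusted by Benjamini-Hochberg over all genes tested, with a threshold of 0.05, and SE is the log2 difference over the root of F. CPM used plain library totals. Likeness used log2(CPM + 0.5) for genes over 1 CPM. Alternatives included DESeq2 1.42.0 and limma 3.58.1. From each related list the genes named were up to 3 with the smallest p in its main direction and 1 in the other. The 10 genes and all lists were chosen with earlier results of these data known.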

Additional observations from a re-analysis of the deposited data

How the results depend on the processing

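Of the 10 genes, 5 were called lower in B cell mRNA. That count was 8 with DESeq2, limma voom or all 8 libraries in 1 fit, 2 without a filter or with RNA-seq thinned to 136433 counts, 3 with a mean of at least 10 CPM and 9 with a term for the libraries numbered 1. It ranged from 3 to 9 when 1 library was left out. The footprint count of 1 was 2 with limma voom, 5 without a filter, 0 in a fit of all 8 libraries, 4 with the term for libraries numbered 1, and 0 to 7 with 1 library left out. The T cell count of footprints over mRNA was 3, 1 among genes passing the footprint filter (chosen after seeing the data) and 0 to 4 with 1 library left out. The B cell count of 2 was 4 with DESeq2, 1 with limma voom and 0 to 4 with 1 library left out. The interaction count was 0 under all alternatives run. The cause of these changes was not tested. Over all genes, the 2572 calls in mRNA were 473 after thinning and 1455 and 1626 without B cell library 1 or 3, and the 629 in footprints were 415 without T cell library 1. The 3642 calls of footprints against mRNA in T cells were 947 without T cell footprint library 1, 2288 without T cell RNA-seq library 4, 1684 with the replicate block and 1559 among genes passing the footprint filter. The 2484 in B cells were 1520 without B cell footprint library 3, 1524 and 1281 without B cell RNA-seq library 1 or 3 and 1203 among genes passing the footprint filter. The 0 interaction calls were 10 with DESeq2 and 87 with the replicate block.

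The labels do not say that a number marks a shared animal, and B and T libraries share only number 1. The term for the libraries numbered 1 is the nearest to a replicate block for B against T cells (5 to 9 genes called in mRNA and 1 to 4 in footprints), and it sets the other 2 libraries of an assay together although their numbers differ. With a replicate block the count of footprints over mRNA was 2 in B cells. In T cells the numbers 2 and 4 each stand in 1 assay only. The block's T cell values, and the T cell part of its interaction, therefore rest on the libraries numbered 1 alone. Its T cell and interaction calls, also those over all genes, are no check across libraries. Deviations of same-numbered B cell libraries had r = -0.01 across 13227 genes, which are not independent.

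Signs of some single values turned, none of them called. With upper-quartile scaling Ltb was -0.019 and Itgam -0.038 in B against T mRNA, and Itgam was -0.009 in the fit of all 8 libraries. With limma voom Klrb1c was 0.64 in B cell footprints over mRNA and Gzmb -0.29 in the interaction. With the replicate block the T cell values of Nkg7 and Klrk1 were 0.047 and -0.23, and the interaction of Gzmb was -0.014. Ranges with 1 library left out follow, the low end without B cell footprint library 3 in most B cell and interaction values. In B against T mRNA they were -0.29 to 0.37 for Ltb, -0.36 to 0.61 for Itgam and -1.13 to 0.01 for Clec2d. For footprints over mRNA in T cells they were -7.48 to 1.41 for Ncr1, -0.29 to 1.03 for Klrk1 and -0.39 to 0.04 for Nkg7. In B cells they were -7.01 to 0.94 for Klrb1c, -0.12 to 3.74 for Gzmb, -2.47 to 3.31 for Nkg7, -0.80 to 3.11 for Ccl5, -1.22 to 2.93 for Klrd1, -6.13 to 4.07 for Klrc1, -6.60 to 4.50 for Ncr1 and -0.20 to 2.78 for Klrk1. For the interaction they were -1.20 to 1.93 for Gzma, -2.56 to 1.46 for Gzmb, -0.55 to 1.80 for Prf1, -2.27 to 3.50 for Nkg7, -0.56 to 3.33 for Ccl5, -0.34 to 3.79 for Klrd1, -8.33 to 1.79 for Klrc1, -4.61 to 3.27 for Klrb1c, -7.25 to 10.01 for Ncr1 and -0.51 to 2.51 for Klrk1.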
